A study of Mus musculus with 12 samples.

Results

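The heart's core transcription factors were represented by 10 genes: Gata4 and Gata6, Nkx2-5, Tbx5 and Tbx20, Mef2a, Mef2c and Mef2d, Hand2, and Srf. Every probe set whose only annotated symbol was one of these genes was taken, which gave 30 of the 45037 probe sets on the array. Each gene's probe sets are described with the highest mean over the 12 arrays first. None of the 30 probe sets passed the test in any of the 5 comparisons, whether for doxorubicin (DOX), for genotype or for their interaction. The probe sets nearest to the threshold belonged to Mef2a, which averaged lower in knockout-labelled than in WT hearts without DOX, and to Srf, which averaged lower in knockout-labelled hearts with DOX than without it. Several targets of SRF did pass, among them the smooth muscle genes Acta2 and Myl9.

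RNA of whole hearts was hybridised to 12 Affymetrix arrays, 3 for each of 4 groups of male C57BL/6J mice: knockout-labelled DOX, WT DOX, knockout-labelled with no treatment and WT with no treatment. By the labels the mice were 8 to 10 weeks old, the 6 DOX hearts had received 1 injection of 15 mg/kg and were removed 5 days later, and the gene knocked out was the one for CHIP, a ubiquitin ligase and cochaperone encoded by Stub1. The study itself describes a cardiac-specific CHIP transgene made in earlier work, WT littermates, a higher dose, older mice and saline for the mice without DOX, and the transgene's promoter is not given in the sources used here. The labels call the replicates biological, and do not say whether an array holds 1 heart or a pool. The brighter Stub1 probe set went against the knockout label: it lay between 5561 and 8723 on the knockout-labelled DOX arrays, against 1930.1 to 1949.9 on the WT DOX arrays, and between 8762 and 9817 on the knockout-labelled arrays with no treatment, against 1790.3 to 1857 on the WT arrays with no treatment. The dimmer Stub1 probe set showed no such difference, with 1146 to 1255 on the knockout-labelled DOX arrays against 1093 to 1402 on the WT DOX arrays, and 1058 to 1122 against 1037 to 1215 with no treatment (log2 differences of -0.08 and -0.04). The arrays are called knockout-labelled throughout, and every genotype direction is tied to that label.

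These factors bind DNA near the genes of heart muscle and switch on contractile, ion channel and hormone genes, often in pairs on the same enhancer. GATA4 and GATA6 are zinc finger proteins, NKX2-5 is a homeodomain protein, TBX5 and TBX20 carry a T-box, and HAND2 is a basic helix-loop-helix protein. The MEF2 proteins and SRF share a MADS domain. MEF2 activity is held back by class IIa histone deacetylases, and SRF works with myocardin and the actin-sensing MRTF coactivators at short AT-rich elements called CArG boxes. Loss of Gata4, Nkx2-5, Tbx5, Tbx20, Mef2c, Hand2 or Srf disrupts the forming heart in mice.

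Intensities were deposited on a linear scale. Array medians ran between 28.9 and 30.4, and 27.9% to 29.0% of an array's values exceeded 100. Of the 30 probe sets of the 10 genes, 20 had a mean of at least 100 and 10 a lower one, of which 2 were under 32. A fold change below is a difference of means of log2(intensity + 32), which understates the change of dim probe sets. Calls were made where the adjusted p of a limma fit to all 12 arrays was under 0.05. Replicate 3 of the knockout-labelled hearts with no treatment stood apart from the other arrays: it was the lowest of the 12 arrays on 12 of the 30 probe sets and the highest on 4, while over all 45037 probe sets it was lowest on 13.8% and highest on 11.3%. Its mean correlation with its own group was 0.9896, against 0.9920 to 0.9965 for the other 11 arrays. Cardiomyocyte markers (8 of 8 measured) summed to 106622 to 113005 on the knockout-labelled DOX arrays, 99458 to 120194 on the WT DOX arrays, 116880.1 to 120529.7 on the knockout-labelled arrays with no treatment and 116772 to 124822 on the WT arrays with no treatment. The skeletal muscle markers were near the floor, with 4 of 5 at a mean under 32.

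In limma, 0 of the 30 probe sets were called in WT hearts with DOX against WT hearts with no treatment, where 3.06% of all probe sets were called. The count was also 0 in knockout-labelled hearts with DOX against no treatment (2.20% of all probe sets), in knockout-labelled against WT hearts with no treatment (1.81%), in knockout-labelled against WT hearts with DOX (0.941%) and in the interaction (0%). At an unadjusted p under 0.05 the counts were 6, 10, 12, 6 and 4 of 30 in the same order, where 18.8%, 16.2%, 14.1%, 15.5% and 8.69% of all probe sets passed. The methods' t-test passed 6, 7, 5 and 3 of 30 before adjustment in the 4 pairwise comparisons, where 15.0%, 11.9%, 11.0% and 11.8% of all probe sets did, and 0 after it. Groups that did not overlap, with all 3 arrays of one above all 3 of the other, were found on 6 probe sets for DOX in WT hearts (0 higher and 6 lower with DOX; 24.4% of all probe sets), on 10 for DOX in knockout-labelled hearts (7 higher and 3 lower; 20.7%), on 13 for genotype with no treatment (3 higher and 10 lower in knockout-labelled hearts; 19.4%) and on 5 for genotype with DOX (3 higher and 2 lower; 20.4%). The median log2 fold change of the 30 probe sets was -0.09, 0.07, -0.11 and -0.01 in these 4 comparisons, beside -0.01, 0.01, -0.00 and 0.01 over all probe sets. Without regard to sign, the median was 0.14, 0.13, 0.18 and 0.12 for the 30, beside 0.06, 0.05, 0.05 and 0.05 for all, which include many dim probe sets. Genotype with no treatment had the most probe sets of these genes with separate groups, and 9 of the 10 that were lower there belonged to Mef2a, Mef2c and Mef2d.

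**Figure D1:**
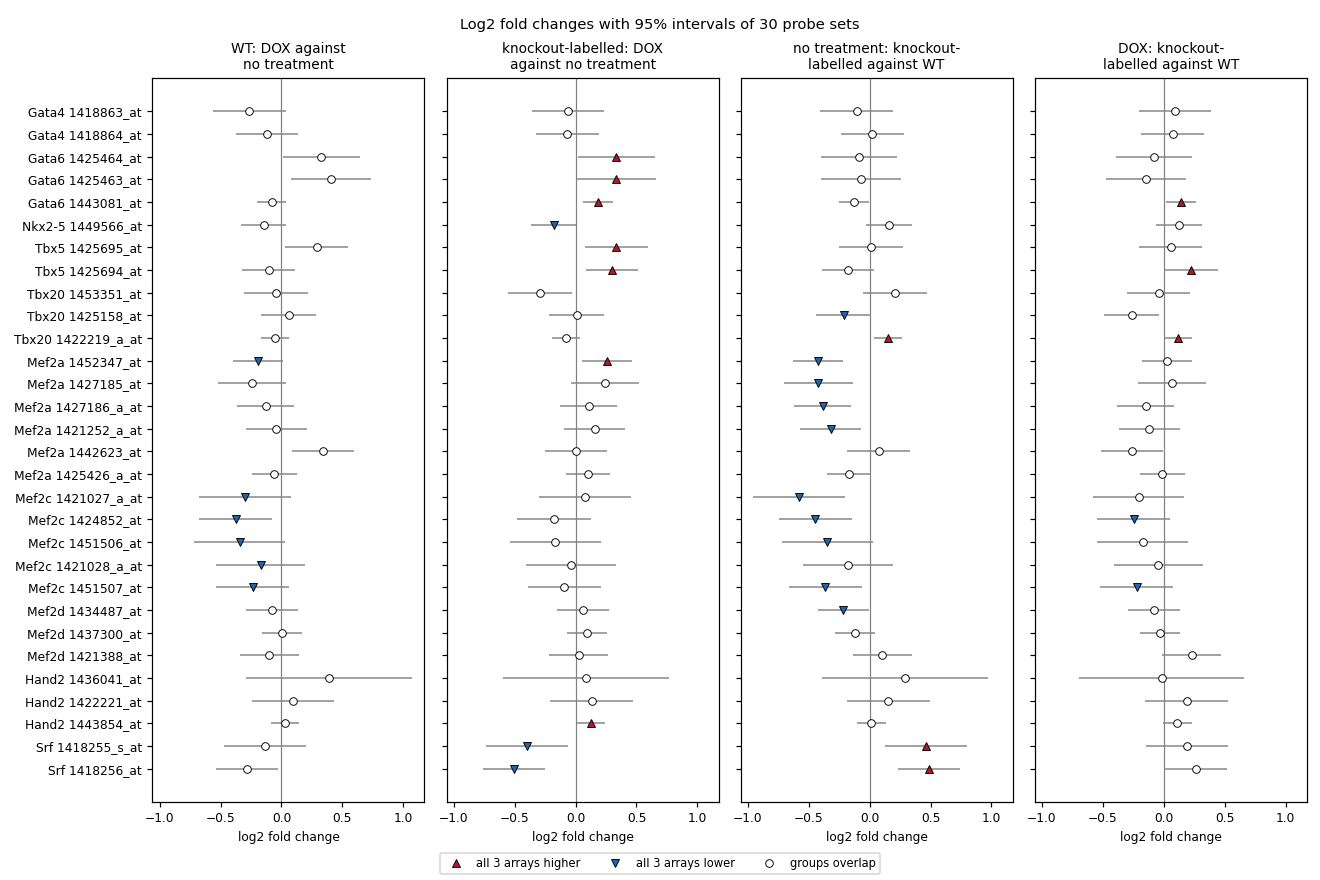
Log2 fold changes (x axis, difference of mean log2(intensity + 32)) of the 30 probe sets (y axis) in the 4 pairwise comparisons, with 95% intervals, n = 3 arrays a group. Triangles mark groups that did not overlap: the Mef2a and Mef2c probe sets lie to the left in the comparison of genotypes with no treatment, down to -0.58, and both Srf probe sets lie to the right there, at 0.46 and 0.49, and to the left for DOX in knockout-labelled hearts.

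Gata4, which encodes the zinc finger factor of the embryonic and the adult myocardium, showed no group apart from the others. Its brighter probe set (1418863_at) read 373, 345 and 420.1 on the knockout-labelled DOX arrays and 339.7, 338 and 383 on the WT DOX arrays. With no treatment the values were 379, 441 and 373 on the knockout-labelled arrays and 552, 383 and 375 on the WT arrays. All 4 groups overlapped, and 1 WT array with no treatment was the highest of the 12. The DOX difference in WT hearts was -0.26 (standard error 0.13, limma adjusted p = 0.333), and the other 3 pairwise differences lay between -0.11 and 0.09. The dim Gata4 probe set (1418864_at) had group means of 36.1 to 42.4 and pairwise differences between -0.12 and 0.07, with overlapping groups in all 4 comparisons. Gata6, its close relative, was higher on average with DOX in both genotypes. Its brightest probe set (1425464_at) read 954, 853 and 902 on the knockout-labelled DOX arrays and 949, 1164 and 786 on the WT DOX arrays. Without DOX it read 732, 679 and 714 on the knockout-labelled arrays and 916, 697 and 669 on the WT arrays. In the knockout-labelled hearts all 3 DOX arrays were above all 3 arrays with no treatment, while the WT groups overlapped. The DOX difference was 0.34 in knockout-labelled hearts (95% interval 0.02 to 0.65, limma adjusted p = 0.271) and 0.33 in WT hearts (95% interval 0.02 to 0.64, limma adjusted p = 0.240), and the interaction was 0.01 (standard error 0.20). The next Gata6 probe set (1425463_at) had DOX differences of 0.33 in knockout-labelled and 0.41 in WT hearts. With 1 array left out, the WT difference was called only without WT DOX replicate 3 (0.56, limma adjusted p = 0.0466). The dim one (1443081_at) read 34.9, 40.5 and 39.3 on the knockout-labelled DOX arrays, against 29.7, 33.2 and 26.4 on the knockout-labelled arrays with no treatment, and was -0.08 for DOX in WT hearts, so that the 3 Gata6 probe sets shared a direction for DOX in knockout-labelled hearts and not in WT hearts.

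Nkx2-5, the homeobox gene of the cardiac lineage and of the conduction system, had 1 probe set (1449566_at). It read 442, 407 and 421 on the knockout-labelled DOX arrays and 427, 399 and 334 on the WT DOX arrays. The arrays with no treatment gave 484, 453 and 512 in knockout-labelled hearts and 464, 398 and 429 in WT hearts. All 3 knockout-labelled DOX arrays lay below all 3 knockout-labelled arrays with no treatment, and in the other 3 pairwise comparisons the groups overlapped. The DOX difference was -0.18 in knockout-labelled hearts (95% interval -0.37 to 0.01, limma adjusted p = 0.343) and -0.15 in WT hearts (limma adjusted p = 0.398). The genotype difference was 0.13 with DOX and 0.16 with no treatment, and the interaction -0.03.

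Tbx5, whose loss in people causes heart and limb defects, was higher on average with DOX on its brighter probe set (1425695_at), which read 264, 227 and 254 on the knockout-labelled DOX arrays and 259.6, 257 and 199.5 on the WT DOX arrays. Where no treatment was given, the knockout-labelled arrays read 216, 191 and 166 and the WT arrays 214, 186 and 167. The 3 knockout-labelled DOX arrays stood above the 3 knockout-labelled arrays with no treatment, and 1 WT DOX array lay inside the range of the WT arrays with no treatment. The DOX difference was 0.34 in knockout-labelled hearts (95% interval 0.08 to 0.60, limma adjusted p = 0.183) and 0.29 in WT hearts (95% interval 0.03 to 0.55, limma adjusted p = 0.212). The dimmer Tbx5 probe set (1425694_at) gave 0.30 in knockout-labelled hearts and -0.10 in WT hearts, so that both probe sets pointed upward with DOX in knockout-labelled hearts and disagreed in WT hearts.

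Tbx20, a T-box factor that keeps the adult mouse myocardium contracting, gave different answers on its 3 probe sets. The brightest (1453351_at) read 731, 626 and 688 on the knockout-labelled DOX arrays and 678, 696 and 732 on the WT DOX arrays. In untreated hearts the values were 679.7, 852 and 1022 for the knockout label and 741, 734 and 696 for WT. The 3 knockout-labelled arrays with no treatment ranged more widely than any other group, and overlapped with all of them. Its DOX difference was -0.29 in knockout-labelled hearts (limma adjusted p = 0.251), against -0.04 in WT hearts. With 1 array left out, the former was called only without knockout-labelled no-treatment replicate 1 (-0.44, limma adjusted p = 0.0462). With no treatment, its genotype difference was 0.21, while that of the second probe set (1425158_at) was -0.21, with all 3 knockout-labelled arrays below all 3 WT arrays (273, 243 and 292 against 343, 297 and 311), and that of the dim one (1422219_a_at) was 0.15. The second probe set also had the smallest adjusted p of the 30 for genotype with DOX, 0.245 in limma, at -0.26 with overlapping groups.

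Hand2, the basic helix-loop-helix gene of the developing right ventricle, varied most between arrays of 1 group. Its brightest probe set (1436041_at) read 766, 616 and 448 on the knockout-labelled DOX arrays and 511, 962 and 445 on the WT DOX arrays. With no treatment the values were 547, 411 and 776 on the knockout-labelled arrays and 389.5, 480.0 and 496 on the WT arrays. Replicate 2 of the WT DOX arrays was the highest of the 12, and the ranges of all 4 groups overlapped. Its differences lay between -0.02 and 0.39, with standard errors of 0.30, and the 95% interval for DOX in WT hearts was -0.29 to 1.07, or 0.819-fold to 2.10-fold. The other 2 Hand2 probe sets had group means of 72.5 or less.

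**Figure D2:**
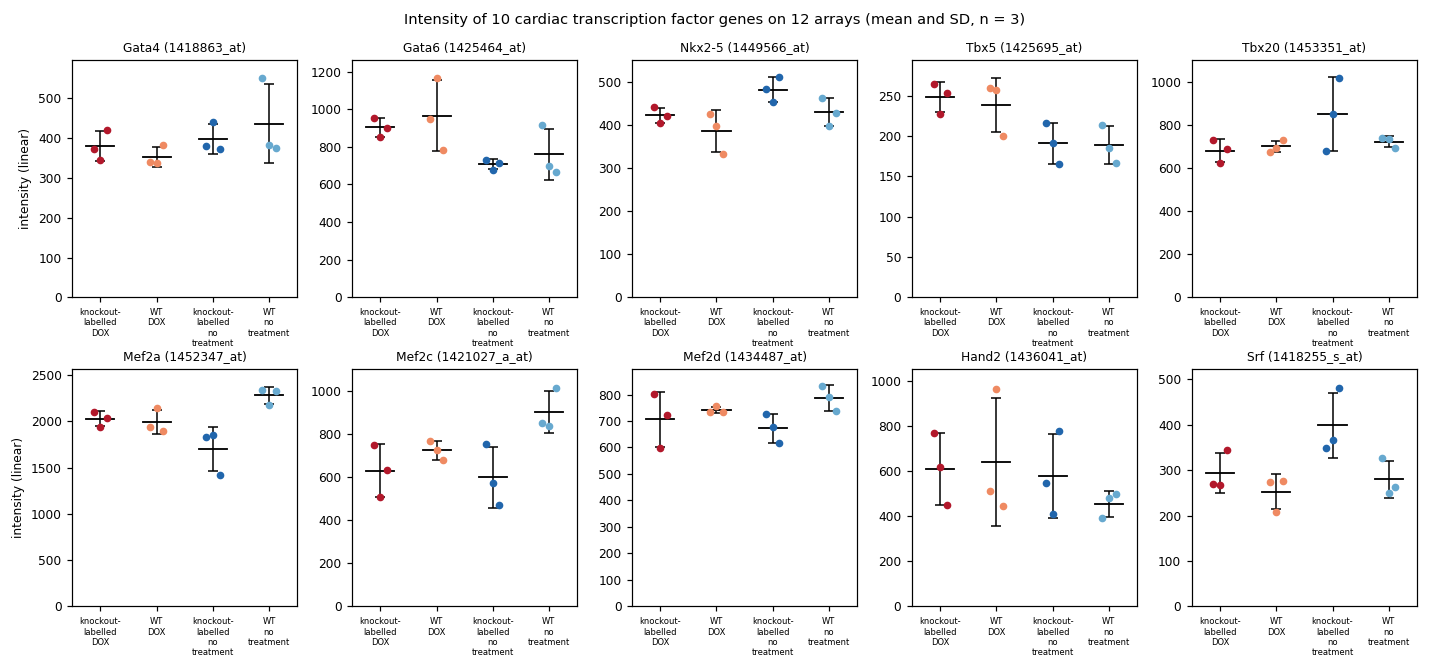
Linear intensity (y axis, from 0) of the brightest probe set of each of the 10 genes on each array of the 4 groups (x axis), with the mean and SD of 3 arrays. Points of Mef2a, Mef2c and Srf separate by genotype with no treatment, with Mef2a at 1426 to 1848 in knockout-labelled and 2173 to 2345 in WT hearts, while Hand2 and Gata4 overlap in every comparison.

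Mef2a, which encodes a MEF2 protein that mice need for normal mitochondria in heart muscle, averaged lower in knockout-labelled than in WT hearts when no DOX was given, just short of the threshold. Its brightest probe set (1452347_at) read 2105, 1943 and 2039 on the knockout-labelled DOX arrays and 1938, 2143 and 1895 on the WT DOX arrays. Without DOX it read 1831, 1848 and 1426 on the knockout-labelled arrays and 2345, 2173 and 2326 on the WT arrays. The 3 knockout-labelled arrays with no treatment were the 3 lowest of all 12 and the 3 WT arrays with no treatment the 3 highest, and both DOX groups lay between them and overlapped with each other. The genotype difference with no treatment was -0.42 (standard error 0.09, 95% interval -0.63 to -0.22), with a limma adjusted p of 0.0518, which missed the threshold. With DOX it was 0.03 (95% interval -0.18 to 0.23, limma adjusted p = 0.922). The signs differed between the genotypes for DOX against no treatment, which was 0.26 in knockout-labelled hearts (limma adjusted p = 0.193) and -0.19 in WT hearts (limma adjusted p = 0.294), both with groups that did not overlap, and these 2 differences share their no-treatment arrays with the genotype difference. The interaction was 0.45 (standard error 0.13, unadjusted p = 0.00602), with a limma adjusted p of 0.464, the smallest of the 30 probe sets there but far from the threshold. Without knockout-labelled no-treatment replicate 3, the lowest array, the genotype difference with no treatment was -0.31 (limma adjusted p = 0.0598). With 1 array left out, the probe set was called there only without replicate 2 of that group (-0.49, limma adjusted p = 0.0379). Without any 1 WT array with no treatment its limma adjusted p was at least 0.124.

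Of the other Mef2a probe sets, the second (1427185_at) read 1874, 1777 and 1366 on the knockout-labelled arrays with no treatment, against 2404, 2135 and 2160.4 on the WT arrays with no treatment, the third (1427186_a_at) 699, 716 and 581 against 889, 797 and 946, and the fourth (1421252_a_at) 463, 504 and 364 against 596, 510.2 and 569. All 4 bright probe sets had every knockout-labelled array below every WT array. Their genotype differences with no treatment were -0.42, -0.42, -0.38 and -0.32, with limma adjusted p values of 0.0518 to 0.212. With DOX the same 4 differences lay between -0.15 and 0.06 and all overlapped. The 2 dim Mef2a probe sets did not follow: 1442623_at had 0.07 and 1425426_a_at -0.17 for genotype with no treatment. The first of these had the smallest adjusted p of the 30 for DOX in WT hearts, 0.140 in limma at 0.34, where the 4 bright ones lay between -0.24 and -0.04.

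Mef2c, the family member required for the looping heart tube and also present in endothelial cells, averaged lower in WT hearts with DOX than without it on all 5 of its probe sets, none of them called but each with groups that did not overlap. The brightest (1421027_a_at) read 752, 508 and 632 on the knockout-labelled DOX arrays and 767, 728 and 681 on the WT DOX arrays. The arrays with no treatment gave 754, 574 and 472 in knockout-labelled hearts and 854, 838 and 1013 in WT hearts. The 3 WT arrays with no treatment were the 3 highest of the 12. The second (1424852_at) read 376, 336 and 376 on the knockout-labelled DOX arrays and 419, 453 and 437 on the WT DOX arrays. Where no treatment was given, the knockout-labelled arrays read 507, 450.3 and 309 and the WT arrays 591, 568 and 568. Here the 3 WT DOX arrays lay close together and below every WT array with no treatment. For DOX in WT hearts the 5 differences were -0.30, -0.38, -0.34, -0.17 and -0.24, with limma adjusted p values of 0.164 to 0.655. In knockout-labelled hearts they lay between -0.18 and 0.08, with overlapping groups on all 5. With no treatment, knockout-labelled hearts differed from WT hearts by -0.58 on the brightest probe set (standard error 0.17, 95% interval -0.96 to -0.21, limma adjusted p = 0.129) and by -0.45 on the second (limma adjusted p = 0.144), and on 4 of the 5 the groups did not overlap. With DOX the genotype differences were -0.04 to -0.25, and on 2 of the 5 (1424852_at and 1451507_at) every knockout-labelled array was again below every WT array. These comparisons share arrays, and the WT arrays with no treatment enter both the DOX and the genotype difference.

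Replicate 3 of the knockout-labelled hearts with no treatment was the lowest of the 12 arrays on all 5 Mef2c probe sets, at 309 on the second one, where replicates 1 and 2 read 507 and 450.3. Without it the second probe set was called for DOX in both genotypes, at -0.37 in knockout-labelled hearts (limma adjusted p = 0.0303) and -0.38 in WT hearts (limma adjusted p = 0.0135), and its genotype difference with no treatment was -0.25 (limma adjusted p = 0.122). On the brightest probe set that difference was -0.43 without the array (limma adjusted p = 0.337). Endothelial markers, another source of Mef2c RNA (7 of 7 measured, 0 under a mean of 32), summed to 12883 to 13953 on the knockout-labelled DOX arrays, 13816 to 15149 on the WT DOX arrays, 14949 to 15881 on the knockout-labelled arrays with no treatment and 15056 to 16518 on the WT arrays with no treatment. Most of these sums was Fabp4, at 10714 to 13673 over the 12 arrays, and the other 6 markers summed to 2168 to 2778 on the knockout-labelled DOX arrays, 2753 to 2949.9 on the WT DOX arrays, 2805 to 3382 on the knockout-labelled arrays with no treatment and 2798 to 3455 on the WT arrays with no treatment. Their part in the Mef2c values was not tested. In whole hearts, fewer cells of a type and less RNA per cell cannot be told apart.

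Mef2d, another MEF2 gene that mediates stress responses of adult mouse heart muscle, was not called in any comparison. Its brightest probe set (1434487_at) read 800.3, 596 and 721 on the knockout-labelled DOX arrays and 736, 756 and 735 on the WT DOX arrays. In untreated hearts the values were 726, 676 and 617 for the knockout label and 833, 789 and 736 for WT. The 3 knockout-labelled arrays with no treatment lay below the 3 WT arrays with no treatment by a narrow margin, and in the other 3 pairwise comparisons the groups overlapped. The genotype difference with no treatment was -0.22 (95% interval -0.43 to -0.00, limma adjusted p = 0.339), and the other pairwise differences lay between -0.08 and 0.06. The 2 dimmer Mef2d probe sets had -0.12 and 0.10 for the same genotype difference, so they did not share a direction.

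**Figure D3:**
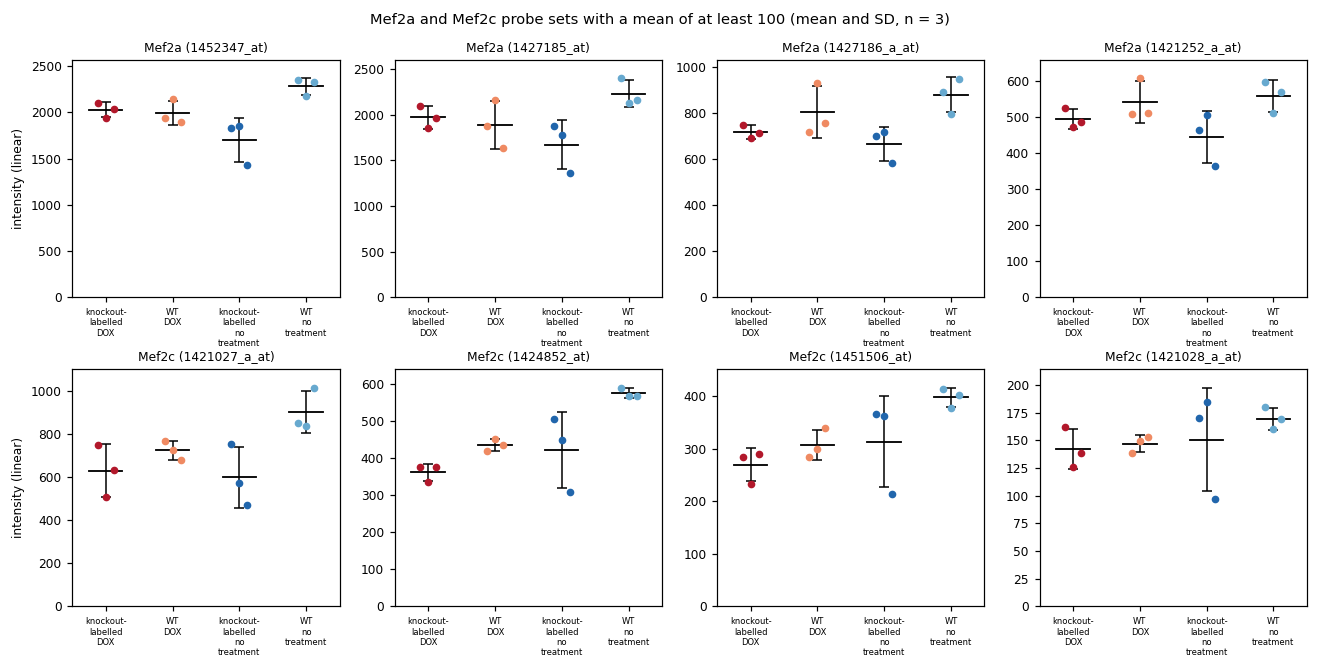
Linear intensity (y axis, from 0) of the 4 Mef2a and 4 Mef2c probe sets with a mean of at least 100 on each array of the 4 groups (x axis), with the mean and SD of 3 arrays. In every panel but the last the WT arrays with no treatment sit above the knockout-labelled arrays with no treatment, and the single low knockout-labelled array in the Mef2c panels is replicate 3.

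Srf, which encodes the MADS factor at CArG boxes of actin and other cytoskeletal genes, had 2 probe sets with the same pattern. The first (1418255_s_at) read 270.0, 267 and 345 on the knockout-labelled DOX arrays and 273, 209 and 277 on the WT DOX arrays. With no treatment the values were 348, 367 and 479.9 on the knockout-labelled arrays and 326, 249 and 264 on the WT arrays. The second (1418256_at) read 226, 261 and 259 on the knockout-labelled DOX arrays and 201, 166 and 246 on the WT DOX arrays. Without DOX it read 384, 331 and 387 on the knockout-labelled arrays and 261, 233 and 263 on the WT arrays. On both, the 3 knockout-labelled arrays with no treatment lay above all other 9 arrays. For DOX against no treatment in knockout-labelled hearts the differences were -0.40 (limma adjusted p = 0.223) and -0.51 (standard error 0.11, 95% interval -0.76 to -0.25, limma adjusted p = 0.0541). For knockout-labelled against WT hearts with no treatment they were 0.46 (limma adjusted p = 0.180) and 0.49 (standard error 0.11, 95% interval 0.23 to 0.74, limma adjusted p = 0.0667). The same 3 knockout-labelled arrays enter both comparisons. In WT hearts DOX gave -0.13 and -0.28, with overlapping groups, and with DOX the genotypes differed by 0.19 and 0.26. The interaction was -0.27 and -0.22 (standard errors 0.21 and 0.16), so a different DOX response of the genotypes was not detected. With 1 array left out, the second probe set was called only without WT DOX replicate 2 or 3. Without knockout-labelled DOX replicate 1 its limma adjusted p for DOX in knockout-labelled hearts was at least 0.163. Without any 1 WT array with no treatment its limma adjusted p for genotype with no treatment was at least 0.124. Without WT DOX replicate 2 the limma adjusted p was 0.0285 for DOX in knockout-labelled hearts and 0.0340 for genotype with no treatment. Without WT DOX replicate 3 these were 0.0256 and 0.0308, and DOX in WT hearts was called at -0.41 (limma adjusted p = 0.0482).

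The Srf gene itself carries CArG boxes, as do some of its targets, so the promoter letters of 3 genes are given to set the expression values beside the element that SRF binds. Promoter windows of 250 bases before to 50 after a RefSeq start (assembly GRCm38.p6) were at hand for 7 of the 10 genes. An exact CArG box (CC, a fixed run of A or T, then GG) was searched on both strands. Among these 7 genes Srf alone had one, with 2 matches that begin 82 and 62 bases before the start, and 1.63% of all 32851 windows held at least 1. Of the 17 listed SRF targets, 13 had a window and 5 of these (Acta1, Actc1, Myl9, Vcl and Fhl2) held one. A match did not go with a call of the target's expression, given below. Acta2, Flna and Ccn1 were called and had a window without a match, while Acta1, Actc1 and Vcl were not called. The Srf stretch covers chr17:46556163-46556312, the Myl9 stretch chr2:156775278-156775337 and the Fhl2 stretch chr1:43196823-43196882, each upstream of the start, on the minus, plus and minus strand, written 5′ to 3′ along the gene with the CArG boxes in capitals.
Srf: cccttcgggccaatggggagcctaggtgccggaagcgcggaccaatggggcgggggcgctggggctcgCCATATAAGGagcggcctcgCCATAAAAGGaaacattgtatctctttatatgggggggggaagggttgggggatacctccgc
Myl9: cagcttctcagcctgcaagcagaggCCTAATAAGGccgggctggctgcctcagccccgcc
Fhl2: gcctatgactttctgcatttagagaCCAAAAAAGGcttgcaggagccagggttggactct
The matches printed for Myl9 and Fhl2 begin 161 and 96 bases before the start. Fhl2 had a second RefSeq window, not printed, with a CArG box that begins 31 bases before its start. A match is a description of the letters in the window, and no binding was measured. The same search for the MEF2 site found it in 1 of the 7 genes, Mef2a, and 3.19% of all windows held one.

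The 17 listed targets of SRF, all measured, are actin, smooth muscle, cytoskeletal and immediate early genes. At an adjusted p under 0.05, 4 fell and none rose with DOX in knockout-labelled hearts, and the list's median was -0.46. By the same threshold 2 rose and 1 fell with DOX in WT hearts (median -0.14). In knockout-labelled against WT hearts 2 were higher and none lower with no treatment (median 0.22). With DOX 1 was higher and 1 lower (median -0.17). Over all probe sets these medians were 0.01, -0.01, -0.00 and 0.01, and 2.20%, 3.06%, 1.81% and 0.941% were called. With 1 probe set a gene, adjusted over fewer probe sets, 4.75%, 5.19%, 4.15% and 2.29% were called. None passed in the interaction, where the median was -0.49.

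Acta2, smooth muscle actin, had the largest called differences of the list. It read 1521, 3091 and 2928 on the knockout-labelled DOX arrays and 1484, 943 and 1507 on the WT DOX arrays. The arrays with no treatment gave 9168, 6289 and 13039.9 in knockout-labelled hearts and 1934, 1283 and 1932 in WT hearts. Every knockout-labelled array with no treatment was above every array of the other 3 groups. It fell with DOX in knockout-labelled hearts by 1.91 on the log2 scale (standard error 0.34, limma adjusted p = 0.0251), and was higher in knockout-labelled than in WT hearts with no treatment by 2.41 (standard error 0.34, limma adjusted p = 0.0139). In WT hearts the DOX difference was -0.39 (limma adjusted p = 0.620). The first call was lost without knockout-labelled DOX replicate 1 or 2 or without knockout-labelled no-treatment replicate 1 or 3 (limma adjusted p up to 0.0836), and the second without WT no-treatment replicate 2 (0.0683).

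Myl9, a regulatory myosin light chain of smooth muscle with the CArG box printed above, read 349, 424 and 495 on the knockout-labelled DOX arrays and 502, 288 and 494 on the WT DOX arrays. Where no treatment was given, the knockout-labelled arrays read 1079, 1117 and 1758 and the WT arrays 534, 419 and 587. Here too the knockout-labelled arrays with no treatment were the 3 highest. The DOX difference in knockout-labelled hearts was -1.55 (standard error 0.24, limma adjusted p = 0.0185), and the genotype difference with no treatment 1.28 (standard error 0.24, limma adjusted p = 0.0344). The first was lost without knockout-labelled DOX replicate 1 or 2 (up to 0.0768). The second was lost without knockout-labelled DOX replicate 2, knockout-labelled no-treatment replicate 1 or 3, or any 1 of the 3 WT arrays with no treatment (up to 0.132). Flna, which encodes the actin crosslinker filamin A, fell with DOX in knockout-labelled hearts: 150.3, 153 and 204 with DOX against 297, 276 and 283 with no treatment, a difference of -0.67 (standard error 0.12, limma adjusted p = 0.0296), and this call was lost without 5 of the 6 arrays compared and without WT no-treatment replicate 3 (up to 0.117).

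Fhl2, which encodes a LIM protein of heart muscle, fell with DOX in both genotypes. It read 4974, 5393 and 5277 on the knockout-labelled DOX arrays and 3336, 2905 and 3805 on the WT DOX arrays. In untreated hearts the values were 7257, 7402 and 7568 for the knockout label and 6249.8, 6352 and 5826 for WT. No 2 groups that were compared overlapped. The DOX difference was -0.50 (standard error 0.08, limma adjusted p = 0.0196) in knockout-labelled hearts and -0.88 (standard error 0.08, limma adjusted p = 0.00340) in WT hearts, and it was higher in knockout-labelled than in WT hearts with DOX by 0.64 (standard error 0.08, limma adjusted p = 0.0187). The WT call held without each of the 12 arrays. The knockout-labelled one was lost without knockout-labelled DOX replicate 1 or 2 (up to 0.0792), and the genotype one without knockout-labelled DOX replicate 2 or 3 (up to 0.0814). Ccn1 and Ccn2, which encode secreted matricellular proteins, rose with DOX in WT hearts. Ccn1 read 769, 862 and 624 on the WT DOX arrays against 399, 310.3 and 365 on the WT arrays with no treatment, 1.00 (standard error 0.13, limma adjusted p = 0.0109), and 262, 280.3 and 274 on the knockout-labelled DOX arrays, -1.35 (standard error 0.13, limma adjusted p = 0.00451) against WT DOX. The genotype call held without each of the 12 arrays, the DOX call was lost without WT no-treatment replicate 3 (0.0503), and the interaction of Ccn1 was -1.49 (limma adjusted p = 0.0765). Ccn2 read 5859, 4910.0 and 2725 on the WT DOX arrays against 1140.5, 1988 and 1057 on the WT arrays with no treatment, 1.65 (standard error 0.33, limma adjusted p = 0.0334), lost without 5 of the 6 arrays compared and without knockout-labelled DOX replicate 2 (up to 0.124).

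Smooth muscle and pericyte markers (6 of 6 measured, 0 under a mean of 32) summed to 11017 to 12428 on the knockout-labelled DOX arrays, 11129 to 12383 on the WT DOX arrays, 15635 to 21096 on the knockout-labelled arrays with no treatment and 10598 to 12017 on the WT arrays with no treatment. Of these 6 genes, 4 (Acta2, Tagln, Cnn1 and Myh11) are also in the SRF list. The high sums of the knockout-labelled arrays with no treatment came from Acta2. Without it the other 5 summed to 8307 to 9499.96 on the knockout-labelled DOX arrays and 10186 to 10899 on the WT DOX arrays. With no treatment they summed to 8056 to 9781 on the knockout-labelled arrays, not above the other groups, and 9316 to 10086 on the WT arrays. Tagln, Myh11 and Cnn1 were a small part of that sum, with means of 517, 354 and 52.7 on the knockout-labelled arrays with no treatment. Their means were 441, 276 and 34.2 on the WT arrays with no treatment and 290, 246 and 30.1 on the knockout-labelled DOX arrays. The list's median was 0.26 for genotype with no treatment and -0.45 for DOX in knockout-labelled hearts. Fibroblast markers (8 of 8 measured, 0 under a mean of 32) summed to 11965 to 13621 on the knockout-labelled DOX arrays, 9567 to 10573 on the WT DOX arrays, 14980.3 to 22050.4 on the knockout-labelled arrays with no treatment and 11137 to 14241 on the WT arrays with no treatment. The fibroblast sums on the knockout-labelled arrays with no treatment lay above those of the other 3 groups, as the Srf values did. Without Dcn, the brightest of them, they were 8136 to 11571 there, against 1990.3 to 6229.97 over the other 9 arrays. Their part in the Srf, Acta2 and Myl9 results was not tested. Atrial markers (6 of 6 measured, with Sln and Bmp10 under a mean of 32) were nearly all Nppa, a hormone gene that stressed ventricles also express, with 11268 to 16112 on the knockout-labelled DOX arrays, 4608 to 10374 on the WT DOX arrays, 13732 to 17236 on the knockout-labelled arrays with no treatment and 3556 to 9428 on the WT arrays with no treatment. The other 5 summed to 411 to 497 on the knockout-labelled DOX arrays, 354 to 529.7 on the WT DOX arrays, 343 to 1026 on the knockout-labelled arrays with no treatment and 393 to 470.2 on the WT arrays with no treatment, with groups that overlapped, and none of the 6 was called in any comparison. Ventricular markers (4 of 4 measured) summed to 60168 to 61287 on the knockout-labelled DOX arrays, 67045 to 69327 on the WT DOX arrays, 45666 to 50821 on the knockout-labelled arrays with no treatment and 54119.9 to 67069 on the WT arrays with no treatment. In the same order, Myh7 had means of 16435, 21161, 4349 and 10584, and Myl2 of 23801, 23753, 22687 and 24649. Myl3 ranged over 19318 to 20991, 22239 to 24781, 17824 to 22275 and 24383 to 25108. The sums therefore differed between groups largely through Myh7. How much atrium each sample held is not given in the sources used here, and its part in the Mef2a, Mef2c and Srf values was not tested.

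**Figure D4:**
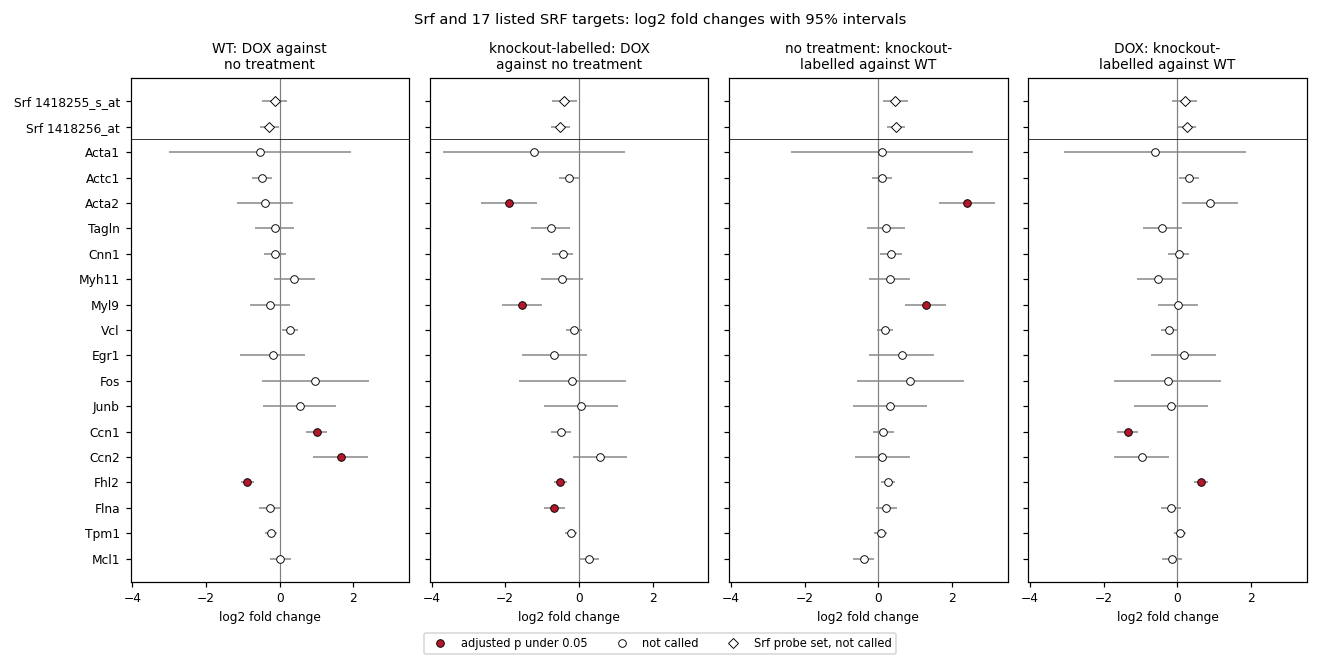
Log2 fold changes (x axis) of both Srf probe sets (diamonds, above the line) and of 17 listed SRF targets (circles, brightest probe set of each gene, y axis) in the 4 pairwise comparisons, with 95% intervals, n = 3 arrays a group. Filled circles passed at an adjusted p under 0.05: Acta2, Myl9, Fhl2 and Flna lie to the left for DOX in knockout-labelled hearts, and Acta2 and Myl9 lie to the right for genotype with no treatment.

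The 24 partners and regulators of the factors were all measured. For this list and those below, the shares in parentheses are of all probe sets, while the lists hold 1 probe set a gene. With 1 probe set a gene, adjusted over fewer probe sets, 5.19% were called for DOX in WT hearts and 4.75% in knockout-labelled hearts. For genotype the shares were 4.15% with no treatment and 2.29% with DOX, and in the interaction 0%. At an adjusted p under 0.05, 1 fell with DOX in WT hearts (median of the list -0.04, 3.06% of all probe sets called). With DOX in knockout-labelled hearts 1 rose (-0.01, 2.20%). None passed for genotype with DOX (-0.12, 0.941%) or in the interaction (0.06, 0%). With no treatment 1 was lower in knockout-labelled than in WT hearts (-0.10, 1.81%). Zfpm1, which encodes FOG1, a cofactor of GATA proteins, was both of the lower ones. It read 70.0, 64.5 and 69.2 on the knockout-labelled DOX arrays and 73.5, 64.7 and 69.4 on the WT DOX arrays. With no treatment the values were 76.2, 74.3 and 68.8 on the knockout-labelled arrays and 104, 99.3 and 106 on the WT arrays. The 3 WT arrays with no treatment stood above the other 9, which lay between 64.5 and 76.2. FOG1 also acts in red cell precursors, and erythroid markers (3 of 4 measured, with Hba-a1 under a mean of 32) summed to 40.4 to 51.0 on the knockout-labelled DOX arrays, 35.6 to 56.3 on the WT DOX arrays, 85.0 to 345 on the knockout-labelled arrays with no treatment and 212 to 1160.4 on the WT arrays with no treatment. The medians of these 3 markers were -1.18 for DOX in WT hearts and -0.88 for genotype with no treatment, and their part in the Zfpm1 results was not tested. The differences were -0.42 (standard error 0.04, limma adjusted p = 0.00437) for DOX in WT hearts and -0.36 (standard error 0.04, limma adjusted p = 0.00718) for genotype with no treatment, which share the WT arrays with no treatment, and both held without each of the 12 arrays. The DOX difference in knockout-labelled hearts was -0.07 (limma adjusted p = 0.449), and the interaction 0.35 (standard error 0.06, limma adjusted p = 0.255). Mrtfb, which encodes an actin-sensing coactivator of SRF, read 1016, 823 and 864 on the knockout-labelled DOX arrays against 609, 547 and 583 on the knockout-labelled arrays with no treatment, and 1115, 1043 and 810.3 on the WT DOX arrays against 764, 716 and 718 on the WT arrays with no treatment. It rose with DOX in knockout-labelled hearts by 0.60 (standard error 0.11, limma adjusted p = 0.0282), a call lost without any 1 of the 6 arrays compared (up to 0.103), and in WT hearts the difference was 0.41 (standard error 0.11, limma adjusted p = 0.0805). Zfpm2, which encodes the related GATA cofactor FOG2, had the smallest p of the list for genotype with DOX, at -0.23 (standard error 0.07, limma adjusted p = 0.176).

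Of 23 other transcription factors of the heart, 22 were measured. At an adjusted p under 0.05, 1 fell with DOX in WT hearts (median of the list -0.05, 3.06% of all probe sets called). None passed with DOX in knockout-labelled hearts (0.01, 2.20%). With no treatment 1 was lower in knockout-labelled than in WT hearts (-0.04, 1.81%). None passed for genotype with DOX (0.02, 0.941%) or in the interaction (0.03, 0%). Prox1, a homeobox factor needed for sarcomere structure in mouse heart and for lymphatic vessels, read 184, 145 and 164 on the knockout-labelled DOX arrays and 224, 289 and 249 on the WT DOX arrays. Without DOX it read 154, 129.6 and 130.0 on the knockout-labelled arrays and 280.2, 221 and 252 on the WT arrays. Its knockout-labelled arrays lay below its WT arrays both with and without DOX. The genotype difference was -0.73 (standard error 0.11, limma adjusted p = 0.0159) with no treatment, lost without WT no-treatment replicate 3 (0.0592), and -0.54 (standard error 0.11, limma adjusted p = 0.0561) with DOX. Meis1, a homeobox gene linked to cell cycle exit of heart muscle cells in mice, read 85.5, 74.2 and 86.5 on the WT DOX arrays against 98.1, 108 and 101 on the WT arrays with no treatment, -0.24 (standard error 0.05, limma adjusted p = 0.0287), lost without WT DOX replicate 1 or 2 or WT no-treatment replicate 2 or 3 (up to 0.0979). Klf15, a zinc finger gene of heart metabolism, had the smallest p of the list for DOX in knockout-labelled hearts, 0.79 (standard error 0.19, limma adjusted p = 0.0617), and Meis1 had it in the interaction, at 0.22 (standard error 0.06, limma adjusted p = 0.464).

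Targets of the 10 factors were mostly below the threshold. Of 18 listed targets of GATA4, NKX2-5 and TBX5, 15 were measured. At an adjusted p under 0.05, 1 fell with DOX in WT hearts (median of the list -0.10, 3.06% of all probe sets called). With DOX in knockout-labelled hearts 2 fell (-0.04, 2.20%). For genotype with no treatment 1 was higher (0.04, 1.81%). None passed for genotype with DOX (0.09, 0.941%) or in the interaction (0.02, 0%). Gja1, the gap junction gene connexin 43, read 5132, 4825 and 6252 on the knockout-labelled DOX arrays and 4145, 4412 and 5077 on the WT DOX arrays. The arrays with no treatment gave 7389.7, 8658 and 7715 in knockout-labelled hearts and 7369.6, 6886 and 8151 in WT hearts. Every DOX array was below every array with no treatment. The DOX difference was -0.55 (standard error 0.11, limma adjusted p = 0.0384) in knockout-labelled hearts, lost without 9 of the 12 arrays (up to 0.141), and -0.71 (standard error 0.11, limma adjusted p = 0.0175) in WT hearts, lost without WT DOX replicate 1 or 2 or WT no-treatment replicate 2 or 3 (up to 0.0748). Ryr2, the calcium release channel, read 2751, 2761 and 3052 with DOX against 4370.0, 3821 and 3999 with no treatment in knockout-labelled hearts, -0.50 (standard error 0.10, limma adjusted p = 0.0420), lost without 9 of the 12 arrays (up to 0.147). Slc8a1, the sodium-calcium exchanger, read 534, 358 and 513 on the knockout-labelled against 209.8, 154 and 181 on the WT arrays with no treatment, 1.22 (standard error 0.23, limma adjusted p = 0.0317), lost without 5 of the 6 arrays compared (up to 0.126). With DOX its genotype difference was 0.77 (standard error 0.23, limma adjusted p = 0.142). In the interaction the smallest p of the list belonged to Tnni3, cardiac troponin I, at 0.19 (standard error 0.09, limma adjusted p = 0.602).

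Of 12 listed targets of MEF2 factors, 11 were measured, and the list's medians were -0.03 for DOX in knockout-labelled hearts, -0.10 for DOX in WT hearts, -0.06 for genotype with DOX, -0.05 for genotype with no treatment, and 0.07 in the interaction. At an adjusted p under 0.05, 1 rose with DOX in knockout-labelled hearts (2.20% of all probe sets called) and 1 in WT hearts (3.06%). For genotype with DOX 1 was lower (0.941%). None passed for genotype with no treatment (1.81%) or in the interaction (0%). Xirp1, an actin-binding gene of the intercalated disc, read 603, 585 and 664 on the knockout-labelled DOX arrays and 826, 894 and 860.2 on the WT DOX arrays. Where no treatment was given, the knockout-labelled arrays read 529.9, 611 and 540.0 and the WT arrays 669.6, 561 and 519. The WT DOX arrays were the 3 highest. It rose with DOX in WT hearts by 0.54 (standard error 0.09, limma adjusted p = 0.0203), lost without WT DOX replicate 1 or 2 or WT no-treatment replicate 2 or 3 (up to 0.0748), and was lower in knockout-labelled than in WT hearts with DOX, with a difference of -0.46 (standard error 0.09, limma adjusted p = 0.0487), lost without 9 of the 12 arrays (up to 0.166). Its interaction was -0.41 (standard error 0.12, limma adjusted p = 0.473). Ppargc1a, the coactivator of mitochondrial genes, read 1648, 1659 and 1596 with DOX against 1217, 1242 and 1014 with no treatment in knockout-labelled hearts, 0.49 (standard error 0.10, limma adjusted p = 0.0446), lost without 9 of the 12 arrays (up to 0.145). Its genotype difference with no treatment was -0.39 (standard error 0.10, limma adjusted p = 0.102). Of the 23 calls of listed genes given here, 17 were lost when the fit was limited to the 6 arrays compared, and 4 (Zfpm1 for both differences, Fhl2 for DOX in WT hearts and Ccn1 for genotype with DOX) held without each single array.

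Across the 12 arrays, the genes whose log2 intensity followed the brightest Mef2a probe set most closely, among 11899 probe sets with 1 gene and a mean of at least 100, were Rbfox1 (Pearson r = 0.94), which encodes a splicing factor of muscle and nerve, and Dgat2 (r = 0.93), which encodes an enzyme of triglyceride synthesis. The 12 points share their 4 groups and come from only 3 arrays each, so these values describe likeness of pattern and were not tested.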

How the data were processed

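Total RNA of whole mouse hearts was hybridised to 12 Affymetrix Mouse Genome arrays, 3 for each of 4 groups taken from the labels. The authors deposited 1 table of processed linear intensity values for 45037 probe sets, and the submitters' processing notes name Affymetrix Expression Console, with the version, summarization and normalization method not given in the sources used here. The lowest deposited intensity was 3.28 and the highest 27119. No scanner file was used, so background, saturation and scan batches were not examined, and with arrays the number of arrays limits the precision.

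Gene symbols came from the platform annotation, updated by Entrez ID: 34945 probe sets had 1 gene, 932 several and 9160 none, and only those with 1 gene were named. Values were taken as log2(intensity + 32) of the deposited intensities, with no further normalization, and fitted in limma 3.58.1 (R 4.3.3) as 4 group means with moderated variance. The tests were two-sided, and Benjamini-Hochberg adjustment ran over all 45037 probe sets, with calls at an adjusted p under 0.05. The fit was tested on simulated data. Intervals are 95%. The p-values measure the spread between arrays labelled biological replicates.

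The 10 genes and all gene lists were chosen with earlier results of these data known, and are described by counts and medians without a test of the list. For listed genes the probe set with the highest mean was used. The genes named from each list were those called in a comparison, at most 4 with the smallest p, or the 1 with the smallest p where none was called. The genes most like Mef2a were the 2 with the highest correlation. Alternatives were quantile normalization, subtraction of array medians, added values of 1, 16 and 100, a mean intensity of at least 50, trended and robust variance, array weights, a replicate block, a fit to the 6 arrays compared, 1 probe set a gene, the methods' t-test (Student's t-test on the same values), an adjusted p under 0.10 and leaving out each array. They were applied to the listed genes after the data were seen. Promoter letters came from RefSeq windows, and motifs were searched with Python 3.11.15 on both strands.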

Additional observations from a re-analysis of the deposited data

How the results depend on the processing

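With all 12 arrays in limma no probe set of the 10 genes was called in any comparison. Shares in parentheses are those of all probe sets tested under the same setting. For DOX in WT hearts 1 was called in the fit to the 6 arrays compared (Mef2c 1424852_at; 2.02%), 0 to 2 when 1 array was left out (0.0910% to 5.07%), and 6 of 30 by the methods' t-test before adjustment (15.0%). For DOX in knockout-labelled hearts 1 was called with array medians subtracted (2.32%), with an added value of 1 or 16 (2.45% and 2.55%), with a mean intensity of at least 50 (9.49%), with trended and robust variance (2.64%), with array weights (2.88%) and at an adjusted p under 0.10 (Srf 1418256_at each time), 0 to 1 when 1 array was left out (0.258% to 2.42%), and 7 of 30 by the methods' t-test before adjustment (11.9%). For genotype with no treatment 1 was called after quantile normalization (2.21%), with an added value of 16 (902 of 45037) and with 1 probe set a gene (4.15%; Mef2a 1452347_at each time), 2 with trended and robust variance (2.02%), with array weights (3.14%) and at an adjusted p under 0.10, 3 with a mean intensity of at least 50 (7.68%), 0 to 1 when 1 array was left out (0.187% to 2.68%), and 5 of 30 by the methods' t-test before adjustment (11.0%). For genotype with DOX 3 of 30 passed the methods' t-test before adjustment (11.8%) and no other alternative called one. After adjustment the methods' t-test called 0 in each comparison, and in the interaction no alternative called one. The mean intensity filter and the choice of 1 probe set a gene adjust over fewer probe sets, and the cause of the other shifts was not tested.

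Replicate numbers are shared by the 4 groups in the labels. Correlations of the deviations of same-numbered arrays lay between -0.20 and 0.15 over 12 pairs, with 2 above 0.1, so the arrays share a number and are not treated as pairs. With the replicate block 1 probe set was called for DOX in knockout-labelled hearts and 1 for genotype with no treatment, both Srf 1418256_at (2.43% and 1.85% of all probe sets, limma adjusted p = 0.0375 and 0.0482).

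Of 3535 fold changes of member probe sets recomputed under the alternatives, 91 changed sign, none of them called, and 10 of these moved by over 1 standard error. Of the 23 calls of listed genes given above, the fit to the 6 arrays compared lost 17 and the adjusted methods' t-test 23, while the replicate block lost 3, an added value of 100 lost 4 and quantile normalization lost 2. With 3 arrays a group, no scanner background and many probe sets near the array median, small changes of dim probe sets could be missed.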
